A study of Mus musculus with 7 samples.

Results

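The 10 genes described here encode the interchangeable subunits of the BAF (SWI/SNF) chromatin remodelling complex and 2 of its core subunits. They were found in the deposited count table by symbol, and all 10 were present among the 48440 genes listed: the progenitor-type subunit genes *Actl6a*, *Phf10* and *Ss18*, the neuronal *Actl6b*, *Dpf1*, *Dpf3* and *Ss18l1*, the broadly expressed *Dpf2*, and the core genes *Smarca4* and *Smarcc1*. Their values were taken from 7 bulk RNA-seq libraries of whole mouse retina at E16, a stage when progenitors and newborn neurons are both abundant. Every mouse carried the *Chx10-Cre* transgene, which expresses Cre from the *Chx10* promoter in retinal progenitors. The wildtype library (WT, labelled Chx10Cre) had no floxed allele, heterozygotes (Het, Chx10-Cre;Ptbp1lox/WT) carried 1 copy of *Ptbp1* in which loxP sites surround the promoter and 1st exon, and homozygotes (KO, Chx10-Cre;Ptbp1lox/lox) carried 2. Each library was a pool: 6 retinas for WT, 5, 5 and 6 for Het1 to Het3, and 4, 4 and 6 for KO1 to KO3. WT was a single library, so its values have no error.

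BAF complexes use ATP to move or evict nucleosomes. In the developing nervous system, dividing progenitors assemble the complex with Actl6a (Baf53a), Phf10 (Baf45a) and Ss18, and postmitotic neurons replace these with the paralogs Actl6b (Baf53b), Dpf1 and Dpf3 (Baf45b and Baf45c) and Ss18l1 (Crest), around an unchanged ATPase. The microRNAs miR-9\* and miR-124 are known to repress *Actl6a* during this exchange, and the RNA-binding protein Ptbp1 is itself a known target of miR-124. The comparison of Het with KO asked whether the subunit genes differed in expression when progenitors lacked *Ptbp1*.

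The sequence of miR-9\* and its matches are shown because the microRNA is known to act on *Actl6a*. Of the 2 microRNAs, only the arms of miR-9 were searched here. miR-9\* is the 3p arm of the miR-9 hairpins and had the same mature sequence at *Mir9-1*, *Mir9-2* and *Mir9-3* in RefSeq (GRCm38.p6, for *Mir9-1* chr3:88215652-88215673, plus strand). Its seed, bases 2 to 8, is in capitals in the first line, and in the other lines capitals mark the letters AGCTTTA that pair with the seed in annotated 3′ UTRs (GRCm38, transcript strand, read 5′ to 3′).
miR-9-3p: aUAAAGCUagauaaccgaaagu
Actl6a, chr3:32726629-32726657, plus strand: tcaacgtctgtAGCTTTAgtacactcagg
Smarcc1, chr9:110238602-110238630, plus strand: gcaaagagcacAGCTTTAcaacaagccct
Smarcc1, chr9:110239430-110239458, plus strand: gtgtattttaaAGCTTTAtgtatgagagc
The longest annotated 3′ UTR of *Actl6a* is 371 bases and held 1 match, whose first base was position 38 of the UTR. Of 1965 genes with a 3′ UTR of like length, 2.65% held at least 1 such match. *Smarcc1* held 2 matches in 2396 bases, and 19.7% of the UTRs of like length held at least 1. The other 8 genes held 0 matches, against 11.3% of all 20999 UTRs searched, and the annotated UTR of *Phf10* was only 90 bases long. The letters ACCAAAG, which pair with the seed of the other arm, miR-9-5p (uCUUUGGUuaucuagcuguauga, seed in capitals), were found in 0 of the 10 genes and in 12.2% of all UTRs. A match is a description of the letters alone, and it was not tested whether any of these sites is used in the retina.

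*Ptbp1* served as the check of the genotype labels. It stood at 381 CPM (counts scaled to library size) in WT, at 210, 219 and 234 CPM in Het1 to Het3, and at 27.9, 6.04 and 46.9 CPM in KO1 to KO3, so that every library followed its label. The log2 fold change of KO against Het was -3.04 (SE 0.64, edgeR adjusted p = 0.0316). Markers of retinal progenitors and of neurons were expressed in every library, all 15 of each list passing the expression filter. Het1 stood apart from the other libraries: 12 of 13 skeletal muscle markers were highest there, with a summed level of 350 CPM against 8.23 to 10.6 CPM elsewhere, and 8 pigment epithelium markers summed to 528 CPM against 21.1 to 60.4 CPM. Of these 8, 6 were highest in Het1, where *Pmel* alone stood at 321 CPM. The others were *Rpe65*, with 0 counts in Het1, and *Best1*, at 0.942 CPM in Het1 and 0.883 to 1.18 CPM elsewhere. Lens markers summed to between 1.26 CPM in KO1 and 75.5 CPM in Het3, with *Lim2* at 0 in all 7 libraries. For the BAF genes, the other remodeller genes and the microRNA hosts, values without Het1 are therefore given beside the calls they change. Calls of cell type markers were not examined without Het1.

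A gene was taken as differentially expressed between the 3 Het and the 3 KO libraries when edgeR's adjusted p was below 0.05 and the change exceeded 1.2-fold, 0.263 on the log2 scale. By these limits 0 of the 10 BAF genes were differentially expressed, against 7.22% of the 20019 genes tested (4.01% higher and 3.21% lower in KO). At an unadjusted p below 0.05 there were 4 by edgeR, against 29.7% of all genes, and 3 by DESeq2, against 30.7%. *Dpf3* was the single gene past the adjusted p limit in edgeR (11.1% of all genes were), and its change stayed below the fold limit. DESeq2 put *Dpf2*, *Dpf3* and *Smarcc1* past the adjusted p limit, as it did 20% of the 17813 genes it gave an adjusted p, and 0 of the 10 past both limits, against 11.6% of those genes. Libraries of the 2 genotypes were fully apart for 4 of the 10 genes, *Dpf3*, *Phf10*, *Dpf2* and *Smarcc1*, against 36.3% of the genes tested. In whole tissue, fewer cells of a type and less RNA per cell cannot be told apart.

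**Figure D1:**
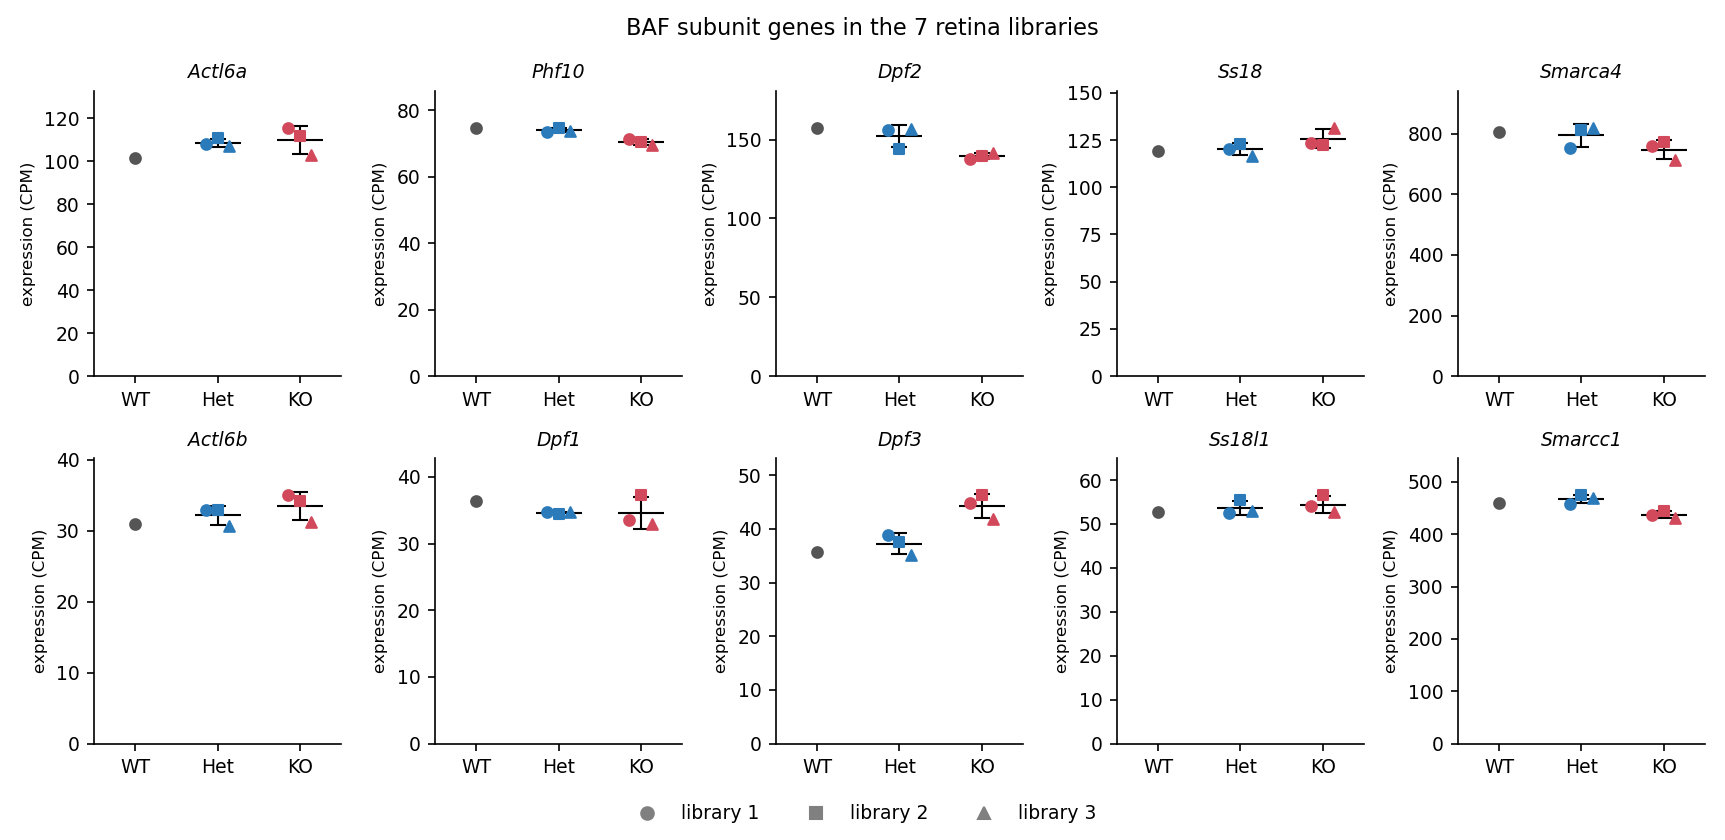
Expression of the 10 BAF subunit genes in CPM (y axis from 0) in the single WT library, the 3 Het and the 3 KO libraries, with the mean and SD as black bars and the library number as the symbol. The 3 KO libraries lie above the 3 Het libraries for *Dpf3* (41.8 to 46.2 against 35.1 to 38.9 CPM) and below them for *Phf10*, *Dpf2* and *Smarcc1*, while the other 6 genes overlap.

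Each of the 10 genes was read deeply. They had between 3915 and 127693 counts in a library, and the standard errors of their log2 fold changes ran from 0.025 to 0.055. The 95% interval of the fold change lay wholly within the 1.2-fold limits in both directions for 9 of the 10 genes, all but *Dpf3*. The same held for 73.0% of the 8169 genes with 20 to 1000 CPM on average and for 35.7% of all genes. In 5 of the 10 genes the estimate was positive and in 5 negative, and their median was 0.0084, beside -0.0047 over all genes tested. The Het mean lay between 95.3% and 107% of the WT value, and WT was inside the Het range for 6 genes, above it for *Phf10*, *Dpf1* and *Dpf2*, and below it for *Actl6a*.

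The subunit pair Actl6a and Actl6b are actin-related proteins that sit beside the ATPase, and their exchange is needed for dendrite growth in neurons. *Actl6a* (ENSMUSG00000027671.14, chr3:32706298-32726973, GRCm38, plus strand) stood at 102 CPM in WT, at 108, 111 and 107 CPM in Het1 to Het3, and at 116, 112 and 103 CPM in KO1 to KO3. The highest and the lowest value of the Het and KO libraries were both in KO libraries, so the groups overlapped. KO against Het gave a log2 fold change of 0.019 (SE 0.047, 95% interval -0.092 to 0.13, edgeR adjusted p = 0.812), which places the KO level between 0.938 and 1.10 times that of Het. The sign of this estimate was not stable: it was -0.017 without KO1. *Actl6b* (ENSMUSG00000029712.14, chr5:137553517-137569582, plus strand) stood at 31.0 CPM in WT, at 32.9, 32.9 and 30.6 CPM in Het, and at 35.0, 34.2 and 31.2 CPM in KO. Library 3 was the lowest in both genotypes, and the groups overlapped. Its log2 fold change was 0.058 (SE 0.055, 95% interval -0.072 to 0.19, edgeR adjusted p = 0.508), between 0.951 and 1.14 times the Het level. The estimate was 0.025 without Het3 and 0.11 without KO3.

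Levels of the 2 paralogs can be set against each other once divided by their exon length. Per kilobase, *Actl6a* stood at 27.9 ± 0.486 CPM in Het and 28.3 ± 1.68 CPM in KO (SD, n = 3), and *Actl6b* at 7.53 ± 0.309 and 7.84 ± 0.471 CPM. The neuronal gene thus took 21.7%, 21.3% and 20.7% of the pair's reads per kilobase in Het1 to Het3 and 21.6%, 21.8% and 21.7% in KO1 to KO3, beside 21.8% in WT. The Het and KO shares overlapped, and the difference of their log2 ratios, 0.040, was within the range of the 3 Het libraries and ran from 0.016 without Het3 to 0.061 without Het1.

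The Baf45 family binds modified histone tails through paired PHD fingers and holds 4 of the genes. *Phf10* (ENSMUSG00000023883.13, chr17:14945009-14961273, minus strand), the progenitor member, stood at 74.7 CPM in WT, at 73.4, 74.6 and 73.7 CPM in Het, and at 71.4, 70.3 and 69.6 CPM in KO. The groups did not overlap, KO averaging 95.3% of Het. The difference was -0.069 on the log2 scale (SE 0.025, 95% interval -0.13 to -0.0099), with an unadjusted p of 0.0282 and an adjusted p of 0.121 in edgeR. Of the 100 tested genes nearest to *Phf10* on chromosome 17, 17 were differentially expressed, 13 of them lower in KO, beside 7.22% and 3.21% of all genes. Around the other genes described here the number ran from 2 (*Actl6b* and *Smarca4*) to 12 (*Dpf1* and *Smarcc1*). Of the 12 around *Dpf1*, 9 were lower in KO, and of the 12 around *Smarcc1*, 8 were higher. Whether the neighbourhood has a part in the *Phf10* value was not tested.

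*Dpf2* (ENSMUSG00000024826.14, chr19:5896516-5913010, minus strand) encodes Baf45d, which is expressed in most cell types. It stood at 158 CPM in WT, at 156, 144 and 157 CPM in Het, and at 138, 140 and 142 CPM in KO. All 3 KO libraries were below all 3 Het libraries, although Het2 came within 3 CPM of KO3. KO averaged 91.8% of Het, the lowest ratio among the 10 genes, with a log2 fold change of -0.12 (SE 0.040, 95% interval -0.22 to -0.030, edgeR adjusted p = 0.0920). DESeq2 gave -0.13 with an adjusted p of 0.0331, so the tools differed on the adjusted p limit, and neither value reached the fold limit.

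The neuronal *Dpf1* (ENSMUSG00000030584.14, chr7:29303951-29318243, plus strand) stood at 36.3 CPM in WT, at 34.7, 34.5 and 34.7 CPM in Het, and at 33.6, 37.2 and 32.9 CPM in KO. The Het libraries were nearly equal, with an SD of 0.0991 CPM, and the KO libraries spread around them with an SD of 2.35 CPM. Its log2 fold change was -0.0023 (SE 0.050, 95% interval -0.12 to 0.12, edgeR adjusted p = 0.980), and its sign turned with the scaling and with single KO libraries.

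*Dpf3* (ENSMUSG00000021221.15, chr12:83213745-83487716, minus strand), the other neuronal Baf45 gene, which also acts in heart and skeletal muscle development, gave the largest difference of the 10. It stood at 35.6 CPM in WT, at 38.9, 37.6 and 35.1 CPM in Het, and at 44.8, 46.2 and 41.8 CPM in KO. WT lay within the Het range, and all 3 KO libraries lay above it. The KO mean was 44.3 ± 2.28 CPM against 37.2 ± 1.95 CPM in Het (SD, n = 3). The log2 fold change was 0.25 (SE 0.053, 95% interval 0.12 to 0.38), a fold of 1.19 with bounds of 1.09 and 1.30. edgeR gave an unadjusted p of 0.00245 and an adjusted p of 0.0325, and DESeq2 an adjusted p of 0.00181 at 0.25. The estimate sat just under the fold limit, so single libraries decided the call. Without Het1, the library with muscle and pigment markers, it was 0.29 with an edgeR adjusted p of 0.0378, and without KO3 it was 0.29 with an edgeR adjusted p of 0.0235, past both limits in each. Without any one of the other 4 libraries the edgeR adjusted p lay above 0.05, at most 0.119, with estimates of 0.21 or more.

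By both limits, 4.01% of all genes tested were higher and 3.21% lower in KO, the shares beside which the following marker counts stand. Of 9 markers of photoreceptor precursors, 5 were higher in KO by both limits and 0 lower, with 7 estimates positive and 2 negative. Their summed level was 729 to 798 CPM in Het and 905 to 962 CPM in KO, with no overlap. It was 650.5 CPM in the single WT library, below every Het library. The rise was uneven across the list. *Prdm1* stood at 35.8 CPM in WT and averaged 101.5 CPM in Het and 163.3 CPM in KO. *Rcvrn*, another of the 5, had only 14, 8 and 2 counts in Het1 to Het3. Of 15 neuronal markers, 1 was higher (*Map2*, 0.36 on the log2 scale) and 3 were lower (*Tubb3* -0.35, *Gap43* -0.42 and *Elavl4* -0.47), and their sums, 7511 to 7783 CPM in Het and 6688 to 7527 CPM in KO, overlapped. Of 15 progenitor markers, 1 was higher (*Fabp7*, 0.45) and 0 lower, with sums of 8208 to 8378 CPM in Het and 8287 to 8705 CPM in KO. These marker calls come from the fit with Het1 and were not examined without it. The part of these cell types in the *Dpf3* difference was not tested.

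Within the Baf45 family, *Dpf1* and *Dpf3* together took 28.7%, 29.1% and 27.4% of the reads per kilobase of the 4 genes in Het1 to Het3, and 32.0%, 33.3% and 30.8% in KO1 to KO3. WT was at 27.8%. The Het and KO shares did not overlap, and their means, 28.4% ± 0.878 and 32.0% ± 1.26 (SD, n = 3), were 3.66 percentage points apart. The difference in the log2 ratio was 0.25 and stayed between 0.21 and 0.29 when any one library was left out. Set over *Phf10* and *Dpf2* alone, *Dpf3* gave a log2 difference of 0.35 without overlap, and *Dpf1* one of 0.098 with overlap. These shares carry no test of their own, since they are built from the gene values above. With 3 libraries against 3, an exact permutation test cannot give a p below 0.1.

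Ss18 and Ss18l1 are paralogous subunits without DNA-binding domains of their own, and Ss18l1 is known as a calcium-responsive coactivator of dendrite growth. *Ss18* (ENSMUSG00000037013.15, chr18:14624198-14682914, minus strand) stood at 119 CPM in WT, at 120.5, 123.0 and 116.7 CPM in Het, and at 123.5, 122.4 and 131.5 CPM in KO. Only KO3 lay clear of the Het range by more than 1 CPM, and the groups overlapped. Its estimate was 0.068 on the log2 scale (SE 0.039, 95% interval -0.025 to 0.16, edgeR adjusted p = 0.290). *Ss18l1* (ENSMUSG00000039086.9, chr2:180042509-180070201, plus strand) stood at 52.6 CPM in WT, at 52.6, 55.5 and 53.0 CPM in Het, and at 54.0, 56.5 and 52.7 CPM in KO. The ranges were nearly the same, and the log2 fold change was 0.020 (SE 0.037, 95% interval -0.068 to 0.11, edgeR adjusted p = 0.751). Without KO2 it was -0.0090.

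Per kilobase of exon, the neuronal share of this pair was close to even. That share depends on the annotated exon lengths, 9419 bases for *Ss18* and 4343 for *Ss18l1*. In CPM, *Ss18* averaged 120 and *Ss18l1* 53.7 in Het. *Ss18l1* took 48.6%, 49.4% and 49.6% of the pair's reads per kilobase in Het, and 48.7%, 50.04% and 46.5% in KO, beside 48.9% in WT. The groups overlapped, and the difference of the log2 ratios, -0.048, turned to 0.0074 without KO3. At 12.7 ± 0.337 CPM per kilobase for *Ss18* and 12.4 ± 0.357 for *Ss18l1* in Het (SD, n = 3), the ranges of the paralogs overlapped. Per kilobase within a library, *Ss18* was the higher in WT, in all 3 Het libraries, in KO1 and in KO3, and *Ss18l1* in KO2.

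**Figure D2:**
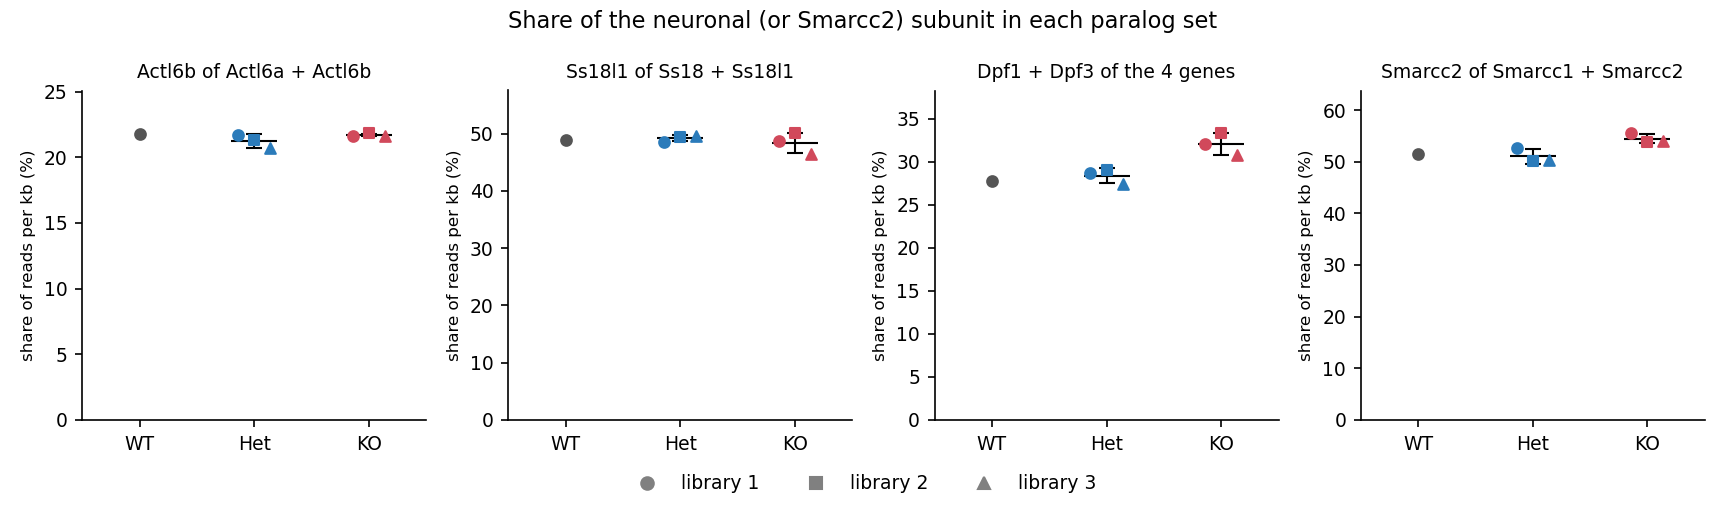
Share of reads per kilobase (y axis, percent, from 0) taken by the neuronal gene or genes of each paralog set, and by *Smarcc2* of the Smarcc pair, in WT, Het and KO libraries, with the mean and SD as black bars. The Dpf1 plus Dpf3 share is 27.4% to 29.1% in Het and 30.8% to 33.3% in KO, and the Actl6b and Ss18l1 shares overlap between the genotypes.

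Per kilobase, the core subunit genes had the highest levels of the 10. *Smarca4* (ENSMUSG00000032187.16, chr9:21616169-21704230, plus strand), which encodes the ATPase Brg1, stood at 804 CPM in WT, at 752, 811 and 819 CPM in Het, and at 758, 771 and 712 CPM in KO. Het1 was lower than KO1 and KO2, so the groups overlapped. The log2 fold change was -0.088 (SE 0.051, 95% interval -0.21 to 0.033, edgeR adjusted p = 0.289). Its paralog *Smarca2*, the ATPase Brm, took 2.76% ± 0.280 of the pair's reads per kilobase in Het and 3.06% ± 0.283 in KO (SD, n = 3), with overlap. This share depends on the annotated exon lengths, 14269 bases for *Smarca2* and 6475 for *Smarca4*. In CPM, *Smarca2* averaged 49.6 and *Smarca4* 794 in Het.

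*Smarcc1* (ENSMUSG00000032481.16, chr9:110117708-110240178, plus strand) encodes Baf155, a scaffold on which the complex assembles. It stood at 459 CPM in WT, at 458, 474 and 469 CPM in Het, and at 436, 444 and 432 CPM in KO. The KO libraries were all below the Het libraries, and WT lay within the Het range. KO averaged 93.5% of Het, with a log2 fold change of -0.097 (SE 0.031, 95% interval -0.17 to -0.022, edgeR adjusted p = 0.0938), and DESeq2 gave -0.10 with an adjusted p of 0.0275. The other scaffold gene, *Smarcc2* (Baf170), had a log2 fold change of 0.099 (SE 0.043, edgeR adjusted p = 0.182). *Smarcc2* took 52.7%, 50.1% and 50.4% of the pair's reads per kilobase in Het and 55.5%, 53.9% and 54.0% in KO, beside 51.5% in WT. These shares did not overlap, with means 3.38 percentage points apart and a log2 difference of 0.20 that was likewise not tested.

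Set per kilobase of exon, the 10 genes fell in the same order in WT and in the means of Het and of KO. In Het, *Smarca4* led at 122.7 ± 5.71 CPM per kilobase, followed by *Smarcc1* at 59.7 ± 1.05 and *Actl6a* at 27.9 ± 0.486 (SD, n = 3). *Dpf2* stood at 23.4 ± 1.08, *Phf10* at 15.0 ± 0.123, *Ss18* at 12.7 ± 0.337 and *Ss18l1* at 12.4 ± 0.357. The remaining neuronal genes were the lowest, *Dpf3* at 8.80 ± 0.461, *Actl6b* at 7.53 ± 0.309 and *Dpf1* at 6.44 ± 0.0188 CPM per kilobase. Among neighbours in this order, only *Ss18* and *Ss18l1* had overlapping Het ranges. Overlapping genes could alter these values, depending on how the counting treated strand and reads shared between genes. Genes on the opposite strand overlap *Actl6a*, *Phf10*, *Dpf1*, *Dpf2* and *Smarcc1*. A gene on the same strand overlaps *Ss18* and *Smarca4*, and none overlaps *Actl6b*, *Dpf3* or *Ss18l1*.

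The remaining SWI/SNF subunit genes gave 1 call. Of 21 measured, 0 were higher and 1 was lower in KO by both limits, beside 7.22% of all genes (3.21% lower). Libraries did not overlap for 7 of the 21, beside 36.3% of all genes, and the median log2 fold change was 0.0050. The gene that fell was *Gltscr1l* (ENSMUSG00000036568.6, chr17:46798120-46858482, minus strand), also named *Bicral*, a subunit of the non-canonical BAF complex. It stood at 39.0 CPM in WT, at 39.4, 39.8 and 40.9 CPM in Het, and at 32.2, 32.0 and 33.3 CPM in KO. WT was close to Het and every KO library was lower, KO averaging 81.2% of Het. The log2 fold change was -0.30 (SE 0.031, edgeR adjusted p = 0.00579), and the gene passed both limits in each of the 6 fits that left out 1 library. Of the 100 tested genes nearest to it on chromosome 17, 14 were differentially expressed, 12 of them lower, beside 7.22% and 3.21% of all genes, and their part in its value was not tested. *Smarce1* (Baf57), a DNA-binding subunit named after its values were seen, stood at 288 CPM in WT, 266 to 284 CPM in Het and 229 to 235 CPM in KO, a log2 fold change of -0.25 (SE 0.034, edgeR adjusted p = 0.0108) that stayed below the fold limit except without Het1, where it was -0.27. The most abundant gene of the list, *Actb*, had a log2 fold change of -0.12 (edgeR adjusted p = 0.212).

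**Figure D3:**
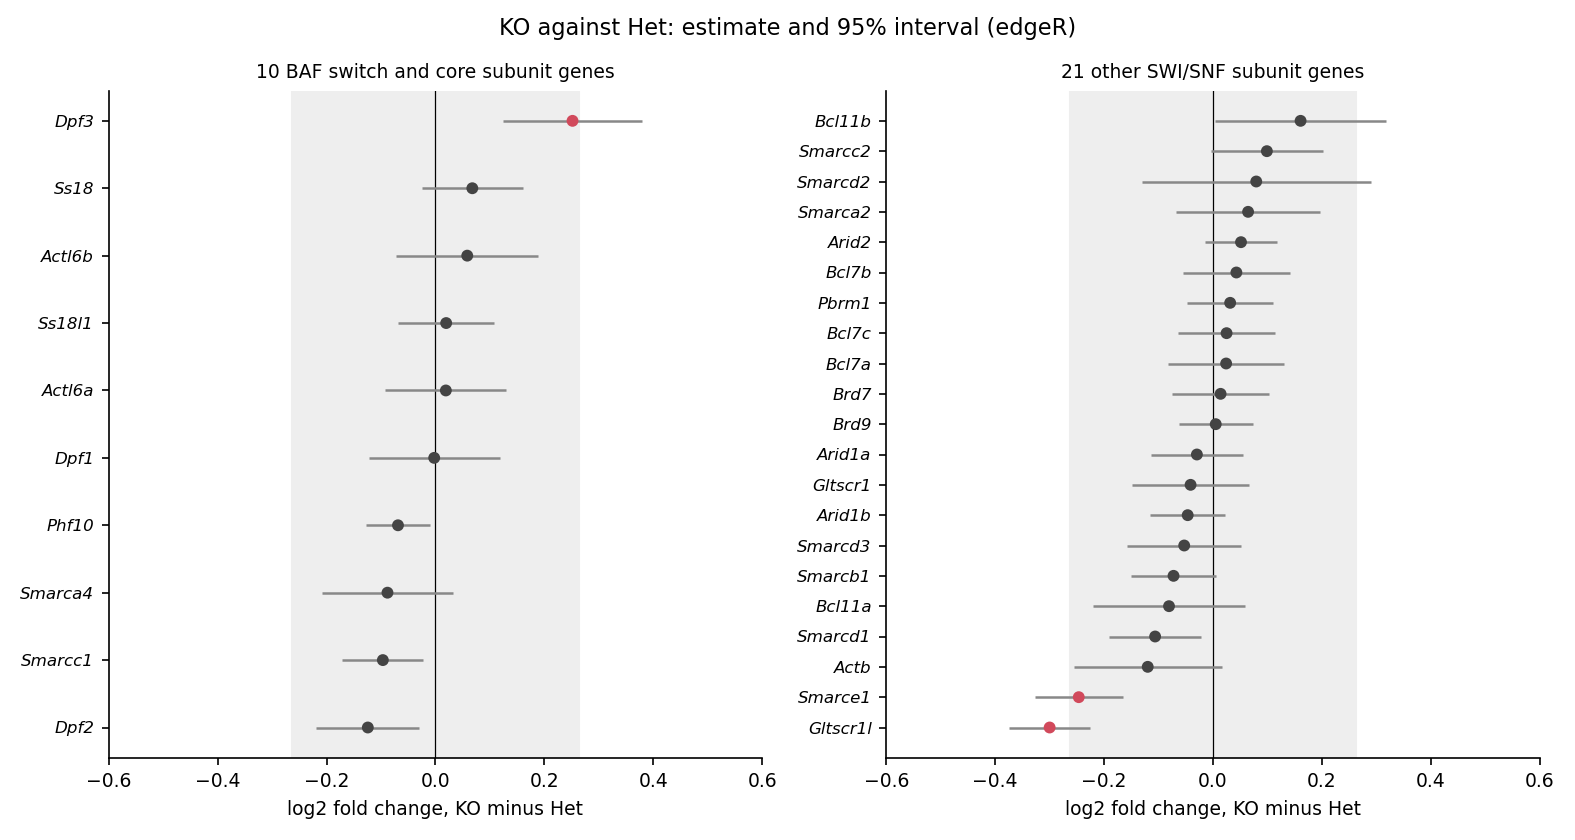
Log2 fold change of KO against Het (x axis) with its 95% interval from edgeR for the 10 genes described here and for 21 other SWI/SNF subunit genes. The grey band marks the 1.2-fold limits and red points have an adjusted p below 0.05. Of the red points, *Dpf3* and *Smarce1* lie inside the band and *Gltscr1l*, at -0.30, lies outside it.

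ATPase genes of other remodellers gave 2 calls among 17, both higher in KO, beside 7.22% of all genes (4.01% higher), and their median log2 fold change was 0.066. *Chd5*, a neuronal subunit of the NuRD family, stood at 47.2 CPM in WT, at 54.1, 48.4 and 47.6 CPM in Het, and at 63.8, 70.2 and 60.3 CPM in KO. No KO library was as low as any Het library, and the gene rose by 0.37 on the log2 scale (SE 0.071, edgeR adjusted p = 0.0243). *Chd9* stood at 170 CPM in WT, 151 to 160 CPM in Het and 173 to 203 CPM in KO, and rose by 0.28 (SE 0.062, edgeR adjusted p = 0.0380). Single libraries decided both calls. *Chd5* lost its call without Het2, Het3 or KO2, where the edgeR adjusted p was 0.102, 0.0899 and 0.0729. *Chd9* kept its call without KO1 alone and lost it without Het1 (0.29, edgeR adjusted p = 0.0746) and without each of the other 4 libraries, with an edgeR adjusted p from 0.0576 to 0.127. The most abundant gene of the list, *Chd4*, had a log2 fold change of -0.087 (edgeR adjusted p = 0.196).

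The microRNAs that act on *Actl6a* are made from longer host transcripts, 4 of which were followed here. These libraries read polyadenylated RNA, so the values are those of the hosts and not of the mature microRNAs. *Mir124a-1hg*, the host of a miR-124 gene, stood at 15.6 CPM in WT, at 10.8, 9.36 and 9.52 CPM in Het, and at 14.2, 20.97 and 20.5 CPM in KO. KO and Het libraries were fully apart, KO being the higher, and WT lay within the KO range, not the Het range. KO averaged 188% of Het, and the host rose by 0.91 on the log2 scale (SE 0.16, edgeR adjusted p = 0.0189). The call was lost without Het2, Het3 or KO2 (edgeR adjusted p of 0.0815, 0.0752 and 0.0626), and the estimate stayed between 0.81 and 1.07 in the 6 fits without 1 library.

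The other miR-124 host that was followed, *Mir124-2hg*, gave another pattern. It stood at 97.8 CPM in WT, at 69.5, 78.1 and 71.3 CPM in Het, and at 61.3, 76.1 and 88.7 CPM in KO. The KO libraries lay on both sides of the Het range, with a log2 fold change of 0.047 (SE 0.13, edgeR adjusted p = 0.832) that ran from -0.083 without KO3 to 0.18 without KO1. Among hosts of miR-9, *Mir9-3hg* stood at 4.14 CPM in WT, 4.37 to 4.90 CPM in Het and 5.38 to 6.79 CPM in KO, without overlap. Its log2 fold change was 0.37 (SE 0.12), with an adjusted p of 0.0927 in edgeR and of 0.0383 in DESeq2. *C130071C03Rik*, which hosts *Mir9-2*, stood at 44.2 CPM in WT, at 32.7, 34.3 and 33.2 CPM in Het, and at 31.3, 37.8 and 49.5 CPM in KO, with a log2 fold change of 0.24 (SE 0.15, edgeR adjusted p = 0.327) that ran from 0.052 without KO3 to 0.39 without KO1. *Actl6a* was at 101% of its Het level in KO, and its relation to the levels of the 4 hosts was not tested.

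**Figure D4:**
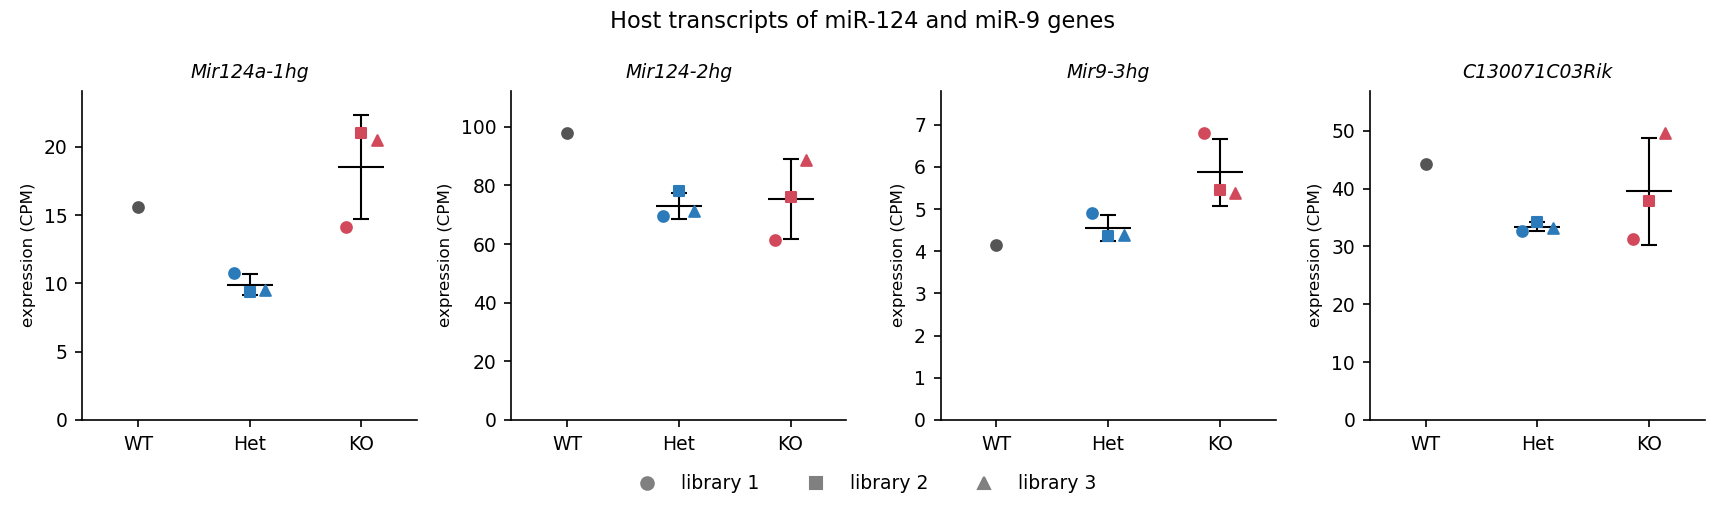
Expression of 4 host transcripts of miR-124 and miR-9 genes in CPM (y axis from 0) in WT, Het and KO libraries, with the mean and SD as black bars. *Mir124a-1hg* is at 9.36 to 10.8 CPM in Het and 14.2 to 20.97 CPM in KO, and the KO libraries of *Mir124-2hg* and *C130071C03Rik* spread across the Het range.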

How the data were processed

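The 7 bulk RNA-seq libraries (1 WT, 3 Het, 3 KO) came from pools of 36 E16 mouse retinas in all. The authors aligned the reads to GRCm38 (mm10) with STAR within rMATS-turbo and summarised them with featureCounts. The deposited values are raw counts per gene. Tool versions, the strand setting and the handling of multi-mapping reads are not given in the sources used here. The labels name TRIzol for RNA extraction and the methods a column kit. Library totals were 120593979 to 171117305 counts. The table had 0 other value columns.

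Counts were fitted with edgeR 4.0.16 (R 4.3.3): genes kept by filterByExpr, TMM factors from 0.988 to 1.03, and a quasi-likelihood fit of all 7 libraries with a mean per genotype. Adjusted p follows Benjamini-Hochberg across 20019 tested genes, and the standard error was the log2 fold change over the square root of F. CPM values are TMM-scaled. The scripts were tested on simulated data. Replicates were separate pools, and their variance was 14.1 to 53.6 times the counting variance, so none was a copy. P-values measure the spread between pools.

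Coordinates, exon lengths (union per gene) and 3′ UTRs came from a GENCODE annotation of GRCm38 that placed 19931 of the tested genes, all 10 described ones included. It was a later release than the one the authors' methods name, so counts and exon lengths could rest on different exons. The longest protein-coding 3′ UTR per gene was searched on the transcript strand, and UTRs of like length were those between 0.8 and 1.25 times as long. Both miR-9 arms were matched in the RefSeq table of GRCm38.p6.

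The genes and lists were chosen with earlier results of these data known. Genes named were the 10, *Ptbp1*, 4 microRNA hosts and, of each other list, those past both limits and the most abundant. *Smarce1*, the paralogs *Smarcc2* and *Smarca2*, and the markers named were added outside this rule, after their values were seen. Alternatives were DESeq2 1.42.0, RLE and upper-quartile scaling, filters of none or of 10 counts in each library, a fit without WT, a replicate block, adjusted p alone, omission of each Het or KO library, and raw counts for the ratios. Splicing, single-cell data and the authors' tables of comparisons were not used here.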

Additional observations from a re-analysis of the deposited data

How the results depend on the processing

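Of the genes described, 0 passed both limits under DESeq2, RLE or upper-quartile scaling, filters of none or of 10 counts in each library, or a fit without WT. Adjusted p alone gave 1 (*Dpf3*), and leaving out 1 library gave 0 to 1. The sign turned for *Actl6a* without KO1 (-0.017), for *Ss18l1* without KO2 (-0.0090), and for *Dpf1* with upper-quartile scaling (0.00020), with 10 counts required in each library (0.00090), and without KO1 (0.019) or KO3 (0.036), all with edgeR adjusted p above 0.05. Over fits without 1 library the log2 fold changes ranged from -0.017 to 0.069 for *Actl6a*, from -0.060 to 0.036 for *Dpf1* and from -0.0090 to 0.046 for *Ss18l1*. The other SWI/SNF genes gave 1 to 2 calls without 1 library and 2 with adjusted p alone, and the other remodellers 0 to 2 and 3 in the same order. Over all genes, the 1445 calls became 386 to 1673 without 1 library, 2221 with adjusted p alone and 2070 with DESeq2. Raw counts in place of reads per kilobase moved the log2 difference of the Baf45 ratio from 0.25 to 0.24. Same-numbered Het and KO libraries correlated at -0.12, 0.256 and 0.0188 in their deviations, and not every library correlated best with its own number. The value of 0.256, for Het2 and KO2, was the highest of any Het and KO pair. These values cannot decide whether the libraries were paired, since deviations from a mean of 3 libraries depend on one another. With the replicate number as a block, 1268 genes were called, 0 of the 10 genes, 1 of the other SWI/SNF genes and 1 of the other remodellers (*Chd5*). WT, as 1 library, limits every statement on Het against WT.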
